A study of Homo sapiens with 2 samples.

Results

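The mitochondrial genome carries 37 genes, all of which were read here from their place on the mitochondrial chromosome: 13 messenger RNAs for subunits of the respiratory chain, 2 ribosomal RNAs and 22 transfer RNAs, out of 60623 genes in each count file. They were measured in OCI-AML3, an acute myeloid leukaemia cell line labelled as wild type, grown in MEM alpha medium with serum. 1 culture was kept for 24 h in DMSO, the vehicle, and 1 in omipalisib (GSK2126458) at 50 nM for the same time. Omipalisib is an inhibitor of the phosphoinositide 3-kinases and of mTOR. Strand-specific libraries made from total RNA were sequenced, and the fragments of each gene were counted. Whether that RNA was then selected by poly(A) tail or by rRNA removal was not stated in the sources read.

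The mitochondrial genome is a circle with a heavy and a light strand. Long transcripts that start near the control region copy each strand almost whole, and enzymes cut them at the tRNAs that sit between most of the other genes. Transcripts templated by the heavy strand (plus in the files, called heavy-strand genes below) hold 28 of the genes: both rRNAs, 12 mRNAs and 14 tRNAs. Transcripts of the other direction (minus in the files, light-strand genes) hold 9: MT-ND6 and 8 tRNAs. The products are core subunits of complex I (NADH dehydrogenase), complex III (cytochrome bc1), complex IV (cytochrome c oxidase) and complex V (ATP synthase), and the RNAs of the ribosome that makes them. The other subunits are nuclear-encoded.

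The heavy- and light-strand messages differ in base composition, which shows at once in their first 60 bases. MT-ND6 lies between MT-ND5 and MT-CYB. On GRCh38 the stretches shown are chrM:14614-14673 (minus strand) of MT-ND6, chrM:12337-12396 (plus strand) of MT-ND5 and chrM:14747-14806 (plus strand) of MT-CYB. These first bases of the 3 genes are from GENCODE release 29, with every G in capitals.
MT-ND6: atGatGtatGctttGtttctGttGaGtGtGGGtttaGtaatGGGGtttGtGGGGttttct
MT-ND5: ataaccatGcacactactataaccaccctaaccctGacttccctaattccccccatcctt
MT-CYB: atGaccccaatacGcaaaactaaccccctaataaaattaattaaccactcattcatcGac
The MT-ND6 stretch holds 21 G and 3 C, the MT-ND5 stretch 2 G and 26 C, and the MT-CYB stretch 3 G and 19 C. Over the whole message G made up 35.6% of MT-ND6, against 6.28% (MT-ATP8) to 16.2% (MT-CO1) of the 12 heavy-strand mRNAs. The bases GGG started at 37 positions in MT-ND6 and at 0 to 6 in each of the others. All 9 light-strand genes held more G than C, as did 1 of the 28 heavy-strand genes, MT-TI.

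4 tRNAs show the same contrast, and are printed because their values are given below. The anticodon is in capitals. MT-TP (tRNA for proline, chrM:15956-16023), MT-TE (glutamate, chrM:14674-14742) and MT-TQ (glutamine, chrM:4329-4400) are on the minus strand. MT-TT (threonine, chrM:15888-15953), next to MT-TP, is on the plus strand.
MT-TP: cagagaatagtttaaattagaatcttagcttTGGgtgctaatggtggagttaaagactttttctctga
MT-TE: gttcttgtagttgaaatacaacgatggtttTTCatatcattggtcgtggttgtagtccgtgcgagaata
MT-TQ: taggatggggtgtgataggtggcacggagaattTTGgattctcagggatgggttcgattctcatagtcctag
MT-TT: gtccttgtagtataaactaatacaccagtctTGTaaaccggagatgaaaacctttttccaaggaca

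Counted fragments numbered 26367832 for DMSO and 22599164 for omipalisib. With 1 library per treatment there is no replicate, so no test was made and no p-value is given. Each log2 ratio is omipalisib over DMSO after scaling with edgeR's TMM factors, with its exact 95% counting interval in parentheses. These intervals cover counting error only and compare the libraries, not the conditions, and fragments without molecular identifiers are not independent molecules. A gene is called higher or lower where its interval excludes 0, which at the depth of the mitochondrial mRNAs needs only a few per cent. Size is therefore read first, against a ratio of 1.5. Of 10 markers of a myeloid leukaemia line, all had counts and 9 reached 1 CPM (counts scaled to the library total) in DMSO. The exception was the integrin ITGAM, with 25 counts in DMSO and 37 in omipalisib. Of the 10, 7 were higher and 1 lower, beside 26.1% higher and 28.6% lower of all 15660 measured genes. The median log2 ratio of the 10 markers was 0.23. CSF1R, the receptor for macrophage colony-stimulating factor, was highest at 1.66, from 834 and 2332 counts, and the lysozyme gene LYZ was lower at −0.39. Markers of other cells summed over 4 erythroid and megakaryocyte genes to 1 count in DMSO and 0 in omipalisib, and over 4 lymphoid genes to 19 in each library. Over 4 stromal and epithelial genes they summed to 2515 and 1573 counts, nearly all from COL1A2 with 2507 and 1564. Their part in the results was not tested.

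The mitochondrial genes took almost the same share of both libraries. They held 1511498 counts, 5.73% of all counts, in DMSO and 1340979, 5.93%, in omipalisib. After scaling, the log2 ratio of the sum was 0.001 (−0.0023 to 0.0044). It was 0.05 with scaling by total counts and −0.04 with median-of-ratios size factors, so its sign is set by the scaling. MT-CO1 and MT-RNR2 together made up 41.0% of the mitochondrial counts in DMSO and 44.6% in omipalisib. Without that pair, the other 35 genes had a summed log2 ratio of −0.09. Such values are shares of a library: less RNA per cell, fewer mitochondria or another amount of all other RNA cannot be told apart from them.

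Of the 37 genes, 30 reached 20 counts over both libraries, and the 7 that did not are tRNAs. Of these 30, 2 were higher, 15 were lower and 13 had intervals that included 0. Over all 15660 genes with that count, 26.1% were higher and 28.6% lower. The split was 5 higher and 10 lower with scaling by total counts, and 2 higher and 18 lower with median-of-ratios size factors. All 15 mitochondrial mRNAs and rRNAs had 10000 counts or more over both libraries. Over all genes at that depth 32.4% were higher and 58.5% lower, while of the 15 mitochondrial RNAs 2 were higher and 11 lower. A difference of at least 1.5-fold was reached by 3 mitochondrial genes, all lower: MT-ND6, MT-TP and MT-TF. The share of all measured genes that were lower by that much was 4.76%, and 9.58% were higher, or 14.3% in either direction. At the depth of the mRNAs and rRNAs those shares were 5.41% and 3.38%, and of the 15 mitochondrial RNAs there only MT-ND6 was past that fold. MT-ND6 and MT-TP are light-strand genes, and MT-TF rests on 20 and 7 counts.

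**Figure D1:**
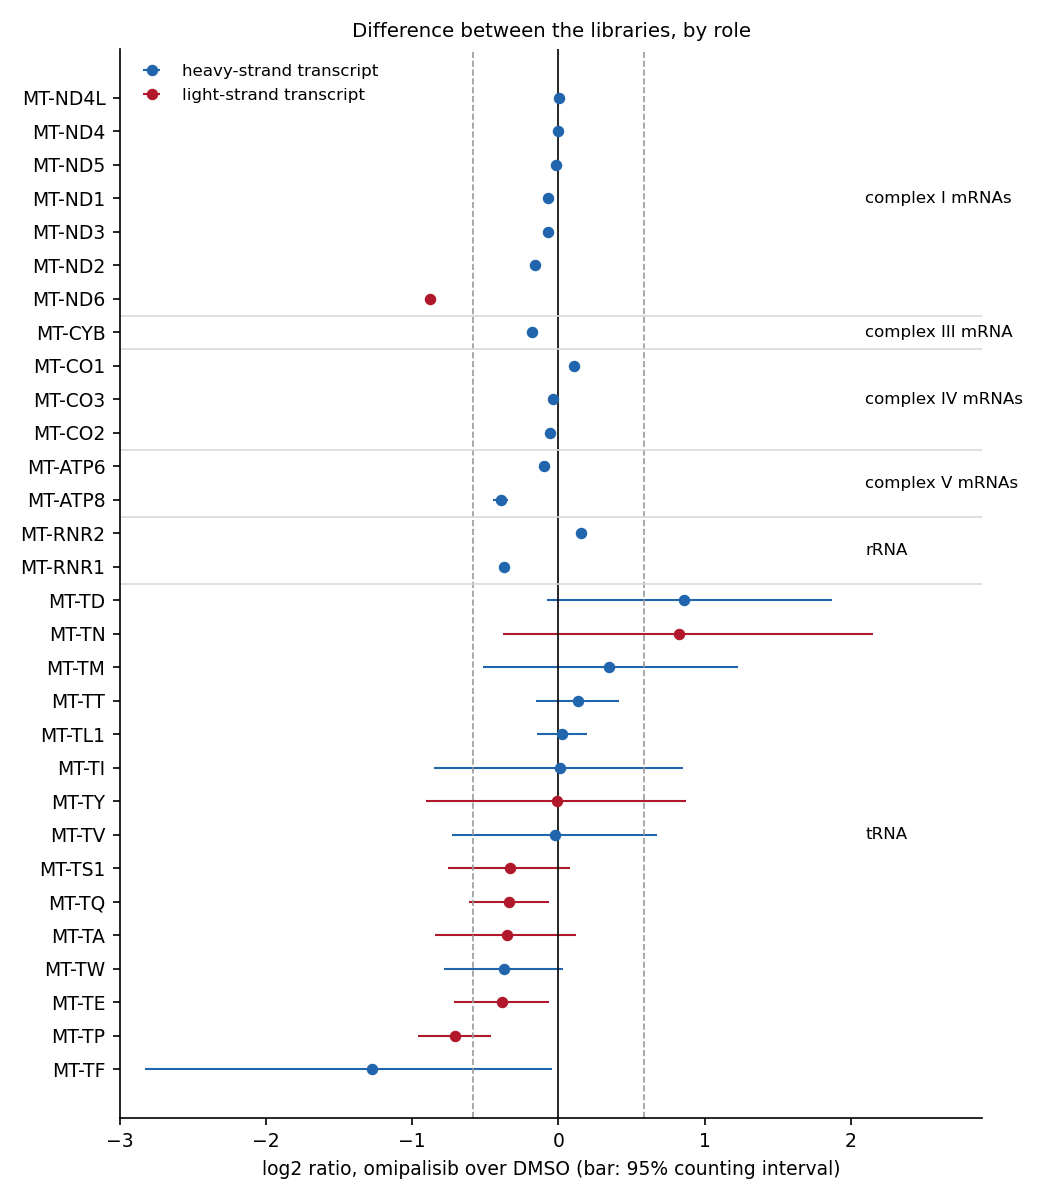
The log2 ratio of omipalisib over DMSO (x axis) is plotted for the 30 mitochondrial genes with 20 or more counts, grouped by role, with bars for the 95% counting interval and dashed lines at 1.5-fold. The heavy-strand mRNAs (blue) lie between −0.40 and 0.10, MT-ND6 (red) stands at −0.88, and the tRNA intervals are wide.

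The level of each gene, in CPM per kilobase of gene length, spanned 11.6-fold over the mRNAs and rRNAs in DMSO. The catalytic core of complex IV was at the top. MT-CO1, which holds the oxygen-reducing site, stood at 9776 in DMSO and 10863 in omipalisib. MT-CO3, a core subunit without a metal site, followed at 7487 and 7531, and MT-CO2, which takes electrons from cytochrome c, at 7354 and 7304. Then came MT-RNR2, MT-ND4, MT-ATP6, MT-ND4L, MT-ND1 and MT-ND2, in the same order in both libraries. The order differed below that. MT-ND6 held place 10 of 15 in DMSO, at 2029, and place 13 in omipalisib, at 1142, where MT-CYB, MT-ND5 and MT-ND3 passed it. MT-RNR1 was lowest in both, at 842 and 674. MT-ND3 (1352) and MT-ATP8 (1352) in DMSO were the only neighbours in either order whose counting intervals overlapped. Across the 15 genes the log2 levels of the libraries had a Pearson r of 0.98 and a Spearman rho of 0.98, as a description of genes that share both libraries.

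**Figure D2:**
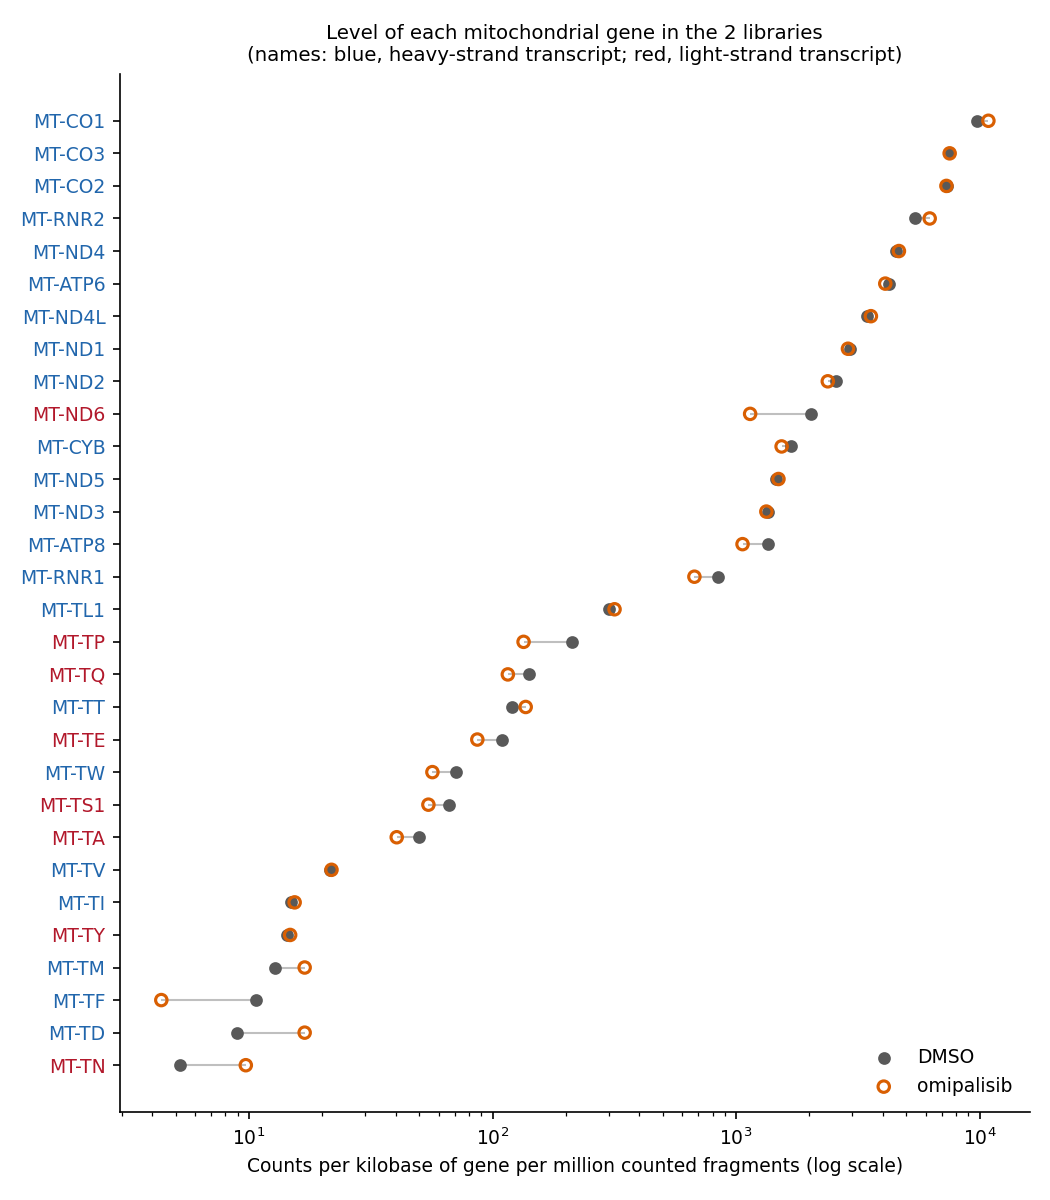
Level of each of the 30 measured mitochondrial genes, in CPM per kilobase of gene length on a log axis, for DMSO (filled) and omipalisib (open), ordered by the DMSO level. The symbols nearly coincide for most heavy-strand mRNAs, while MT-ND6 stands at 2029 and 1142 and MT-TP at 212 and 134.

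Complex I, which takes electrons from NADH, has 7 mitochondrial subunits, and its heavy-strand messages hardly differed between the libraries. MT-ND4 and MT-ND5, antiporter-like subunits of the membrane arm, had 164247 and 69918 counts in DMSO and 145157 and 61115 in omipalisib. The log2 ratio of MT-ND4 was −0.0045 (−0.015 to 0.0057), and 0.044 with scaling by total counts. That of MT-ND5 was −0.020 (−0.036 to −0.0047), and 0.028 with scaling by total counts. MT-ND4L, a small membrane subunit read from the same bicistronic message as MT-ND4, had 27065 and 24006 counts, a ratio of 0.0007 (−0.024 to 0.026), and 0.050 with scaling by total counts. With that scaling the intervals of MT-ND4, MT-ND4L and MT-ND5 lay above 0. MT-ND1, at the quinone site, had 73708 and 62209 counts, a ratio of −0.07 (−0.09 to −0.06). MT-ND3, a small membrane subunit, had 12336 and 10407 counts and also −0.07 (−0.11 to −0.03). MT-ND2, the remaining antiporter-like subunit, was lowest of the 6, with 70623 and 56029 counts, a ratio of −0.16 (−0.18 to −0.14). Summed over these 6 heavy-strand messages the log2 ratio was −0.046 (−0.052 to −0.039).

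MT-ND6, a membrane subunit of the same complex and the only light-strand mRNA, was 1.84-fold lower in omipalisib. It had 28092 counts in DMSO and 13547 in omipalisib, a log2 ratio of −0.88 (−0.91 to −0.85). It made up 6.30% (exact interval 6.23 to 6.37%) of the fragments of all 7 complex I messages in DMSO and 3.64% (3.58 to 3.70%) in omipalisib. Per length it stood above its neighbours MT-ND5 and MT-CYB in DMSO, at 1.387 and 1.204 times their levels, and below both in omipalisib, at 0.765 and 0.743 times. These ratios are taken within a library, so no scaling enters them.

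MT-ND6 is also the mitochondrial message known to lack a poly(A) tail, and whether these libraries were made by poly(A) selection was not stated in the sources read. A list of 18 nuclear RNAs without a tail was read beside it. Only 3 reached a summed count of 20, and 10 had 0 counts in DMSO and 13 in omipalisib. RN7SL1, the RNA of the signal recognition particle, had 409 and 296 counts, for a log2 ratio of −0.29 (−0.51 to −0.07). SNORD3A, the U3 small nucleolar RNA, had 52 and 51 counts, a ratio of 0.15 (−0.44 to 0.73). The vault RNA VTRNA1-3 had 20 and 3 counts, a ratio of −2.38 (−4.96 to −0.81). The part of tail selection in the MT-ND6 difference was not tested.

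Complex III and complex V messages were slightly lower. MT-CYB, the cytochrome b of complex III and its only mitochondrial subunit, had 50709 and 39647 counts, for a log2 ratio of −0.18 (−0.20 to −0.16). MT-ATP6, which forms part of the proton channel of complex V, had 76318 and 63063 counts, a ratio of −0.10 (−0.12 to −0.09). MT-ATP8, a small subunit of the same complex, differed more, with 7379 and 4971 counts, a ratio of −0.40 (−0.45 to −0.34).

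MT-ATP8 and MT-ATP6 lie on 1 message and share bases. The last 80 bases of MT-ATP8 (chrM:8493-8572, plus strand) and the last 40 of MT-ND4L (chrM:10727-10766, plus strand) are shown with the part that also belongs to MT-ATP6 or to MT-ND4 in capitals.
MT-ATP8: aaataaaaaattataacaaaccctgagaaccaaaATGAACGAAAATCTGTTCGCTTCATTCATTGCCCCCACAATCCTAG
MT-ND4L: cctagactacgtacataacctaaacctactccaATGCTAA
The capitals open with the ATG start codon of the downstream gene. MT-ATP8 is 207 bases long, of which 46 are shared and 161 are its own. MT-ND4L is 297 bases long, with 7 shared. Fragments that touch both genes of a pair are given to neither under the counting command in the file headers, so the level of MT-ATP8 is a lower bound, and its count depends on fragment length. MT-ATP8 made up 8.82% (8.63 to 9.01%) of the fragments of the MT-ATP8 and MT-ATP6 pair in DMSO and 7.31% (7.112 to 7.505%) in omipalisib. MT-ND4L made up 14.1% of its pair in DMSO and 14.2% in omipalisib, with overlapping intervals. Fragment lengths were not analysed here, and their part in the MT-ATP8 value was not tested.

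Complex IV was split between 1 higher and 2 lower messages, all by little. MT-CO1, the most abundant mitochondrial RNA, had 397493 and 378563 counts, for a log2 ratio of 0.10 (0.097 to 0.11). MT-CO2 had 132625 and 112909 counts, a ratio of −0.058 (−0.070 to −0.047). MT-CO3 had 154767 and 133437 counts, a ratio of −0.040 (−0.051 to −0.030), which was 0.0086 with scaling by total counts. Within the libraries, MT-CO1 made up 75.0% (74.9 to 75.1%) of the fragments of MT-CO1 and MT-CO2 in DMSO and 77.0% (76.9 to 77.1%) in omipalisib. Complex IV messages held 45.3% of the mitochondrial counts in DMSO and 46.6% in omipalisib, and complex I messages 29.5% and 27.8%. Across the 12 heavy-strand mRNAs, the log2 ratio had a Pearson r of 0.64 and a Spearman rho of 0.64 with the log2 mean level. That level averages both libraries, so it shares counts with the ratio. With the log2 length the coefficients were 0.53 and 0.38. These are descriptions over genes of the same libraries. Length itself is bound up with the fragments lost at gene borders.

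The 2 rRNAs, made next to each other from the same promoter, differed in opposite directions. MT-RNR1, the 12S rRNA of the small ribosomal subunit, had 21184 and 14535 counts, for a log2 ratio of −0.37 (−0.40 to −0.34). MT-RNR2, the 16S rRNA of the large subunit, had 222875 and 219711 counts, a ratio of 0.15 (0.14 to 0.16). Per length, 16S was 6.44 times 12S in DMSO and 9.25 times in omipalisib. The ribosome holds them in equal number, and how much rRNA was removed or selected in library preparation was not stated in the sources read. The log2 difference of 12S against 16S was −0.52 (−0.55 to −0.49), independent of scaling.

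The tRNAs gave 0.14% of the mitochondrial counts in DMSO and 0.12% in omipalisib. Mature tRNAs are short and folded, and fragments that reach into a neighbouring gene on the same strand are not counted, so these values are not levels of mature tRNA. MT-TL1, the tRNA for leucine that follows 16S, was highest, with 595 and 537 counts, for a log2 ratio of 0.026 (−0.15 to 0.20). MT-TT, for threonine, had 210 and 204 counts and 0.13 (−0.15 to 0.42). Of the other heavy-strand tRNAs, MT-TW, for tryptophan, had 127 and 87 counts, a ratio of −0.37 (−0.78 to 0.03). MT-TD, for aspartate, had the highest ratio of the measured tRNAs at 0.86 (−0.08 to 1.87), from 16 and 26 counts. MT-TM, for methionine, had 0.35 (−0.52 to 1.23). MT-TF, for phenylalanine and first on the heavy-strand transcript, had the lowest at −1.28 (−2.83 to −0.04), and its interval included 0 with scaling by total counts. MT-TV had 39 and 34 counts and MT-TI 27 and 24. The 7 tRNAs under the minimum count, 6 of the heavy strand and MT-TC of the light strand, had at most 7 counts in either library, among them MT-TH, MT-TS2 and MT-TL2, which sit in a row between MT-ND4 and MT-ND5.

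Of the 8 light-strand tRNAs 3 were lower, 4 had intervals that included 0 and MT-TC was under the minimum count. The shares over all measured genes were 28.6% lower and 26.1% higher. MT-TP, for proline and nearest to the control region on its strand, had 380 and 206 counts, for a log2 ratio of −0.71 (−0.96 to −0.46). MT-TE, next to MT-ND6, had 199 and 135 counts, a ratio of −0.38 (−0.71 to −0.06). MT-TQ had 268 and 188 counts, a ratio of −0.34 (−0.61 to −0.06). MT-TS1, for serine, had 121 and 85 counts, a ratio of −0.33 (−0.75 to 0.08), and MT-TA, for alanine, 91 and 63 counts, a ratio of −0.35 (−0.84 to 0.12). These are all 5 light-strand tRNAs with 100 or more counts over both libraries. The rarer MT-TY had 25 and 22 counts with a ratio of −0.0068, and MT-TN, for asparagine, 10 and 16 counts with a ratio of 0.83 (−0.38 to 2.153). MT-TC, for cysteine, had 1 count and 4 counts, and no ratio is given.

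Summed by strand, the light-strand genes were lower against the heavy-strand genes both as mRNA and as tRNA. The light-strand mRNA took 2.22% (2.195 to 2.246%) of mitochondrial mRNA fragments in DMSO and 1.23% (1.205 to 1.247%) in omipalisib, a log2 difference of −0.87 (−0.90 to −0.84). Light-strand tRNAs took 50.7% (48.6 to 52.8%) of tRNA fragments in DMSO and 43.0% (40.6 to 45.4%) in omipalisib, a log2 difference of −0.45 (−0.63 to −0.26). The tRNA difference was −0.31 (−0.56 to −0.06) without MT-TP and MT-TL1, the most abundant tRNA of each strand, an alternative chosen after the values were seen. Against their own DMSO sums, the 14 heavy-strand tRNAs had a log2 ratio of 0.016 (−0.11 to 0.14) and the 8 light-strand tRNAs −0.43 (−0.57 to −0.30). The intervals of these log2 differences are normal approximations on the log counts. At the border where MT-TT and MT-TP face each other, MT-TP was 1.76 times MT-TT per length in DMSO and 0.980 times in omipalisib. MT-TT adjoins MT-CYB on its strand, where fragments that touch both are lost, while no gene of its own strand adjoins MT-TP. The loss at borders can thus be unequal between the strands, and the tRNA shares and ratios within a library are not strand levels. The part of this loss in the tRNA strand difference was not tested. The tRNA and mRNA of the light strand did not differ by the same amount: against MT-ND6 the tRNAs were higher by 0.45 (0.31 to 0.58) on the log2 scale in omipalisib than in DMSO.

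**Figure D3:**
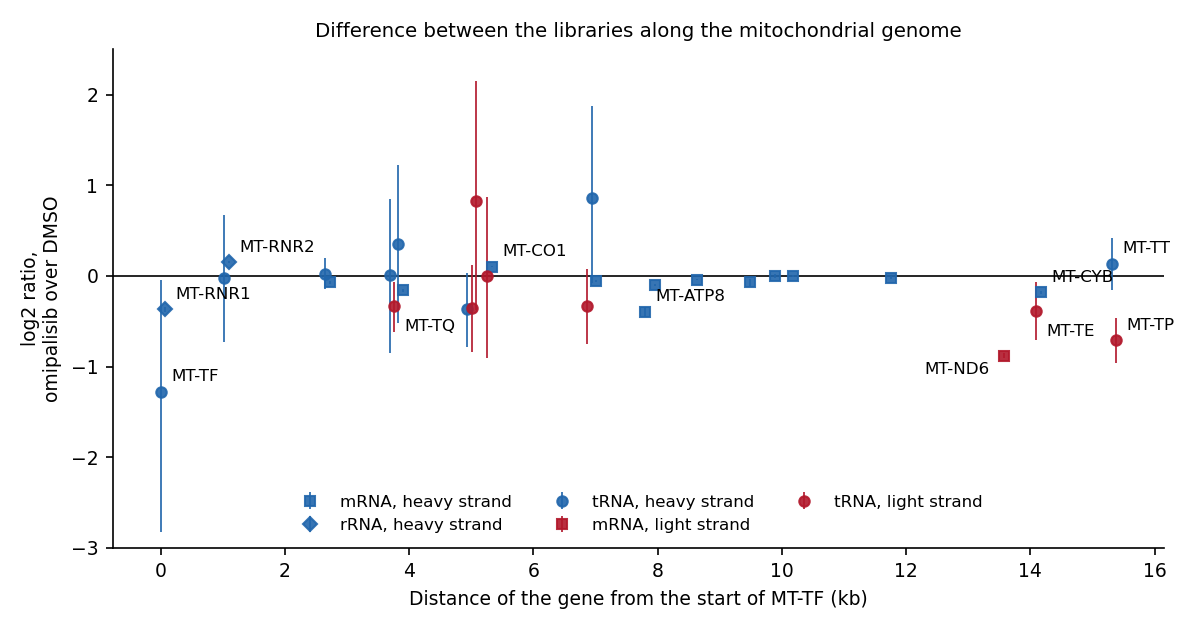
The log2 ratio (y axis, bars for 95% counting intervals) of the 30 measured mitochondrial genes is plotted against the distance of the gene from the start of MT-TF in kilobases. Heavy-strand mRNAs lie between −0.40 and 0.10 along the whole genome, and the red light-strand genes MT-ND6, MT-TE and MT-TP at the far end lie below their blue neighbours MT-CYB and MT-TT.

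The differences showed little relation to position along the heavy-strand transcript. Over the 14 heavy-strand mRNAs and rRNAs, the log2 ratio had a Pearson r of 0.049 and a Spearman rho of 0.073 with distance from MT-TF. The pair nearest the promoter, MT-RNR1 and MT-RNR2, held opposite signs, and MT-ATP8 and MT-ATP6, which overlap, differed by 0.29. MT-CYB, the last heavy-strand mRNA, was lower by 0.18 on the log2 scale.

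Some mitochondrial sequence has copies in the nuclear genome, and fragments that align to both are lost under the tool's default. Of 417 annotated nuclear copies, 7 reached a summed count of 20. MTATP6P1, on chromosome 1, had 10700 and 9052 counts, for a log2 ratio of −0.07 (−0.11 to −0.03), beside −0.10 for MT-ATP6. MTND2P28 had 2909 and 2234 counts, a ratio of −0.21 (−0.29 to −0.13), beside −0.16 for MT-ND2. MTCO1P12 had 537 and 462 counts, a ratio of −0.04 (−0.23 to 0.14), beside 0.10 for MT-CO1. MTRNR2L12, which resembles MT-RNR2, had 173 and 176 counts, a ratio of 0.20 (−0.11 to 0.51), beside 0.15 for MT-RNR2. The rest of the 7 were MTCO3P12 with 15 and 11 counts, MTCO2P2 with 16 and 10, and MTND4P12 with 15 and 12. No copy of MT-ND6 was among the 7. Lost fragments add no count to either place, so a low count on a copy does not show that its mitochondrial gene lost few. The levels of all mitochondrial genes with nuclear copies are therefore uncertain, not only those of MT-ATP6, MT-ND2, MT-CO1 and MT-RNR2.

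Nuclear-encoded subunits of the same complexes are read against all 15660 measured genes, of which 28.6% were lower and 26.1% higher, with a median log2 ratio of 0.0029. Among the genes with 10000 counts or more, 58.5% were lower and the median was −0.10, so these values move with depth. The nuclear subunits of complex I had a median log2 ratio of −0.19, with 25 lower and 2 higher of 37, beside a median of −0.07 for the 7 mitochondrial messages. NDUFA1 (−0.97), NDUFAB1 (−0.79) and NDUFB2 (−0.78) were lowest, and NDUFA13 (0.40) was highest. NDUFB2 and NDUFA13, and below COX6A1, SDHA, SLIRP, MTPAP and FEN1, share some exonic bases with another gene on their strand, so their counts are less certain. For complex III all 9 nuclear subunits were lower, with a median of −0.23 beside −0.18 for MT-CYB. They ran from UQCRFS1, the Rieske iron-sulfur protein, at −0.46 to UQCRB at −0.15. For complex IV 7 of 11 were lower and none higher, with a median of −0.20 beside −0.04, between COX6A1 at −0.35 and COX6B1 at 0.036 (−0.088 to 0.16). The 2 mitochondrial messages of complex V, MT-ATP6 at −0.10 and MT-ATP8 at −0.40, had a median of −0.25 and a summed log2 ratio of −0.13. Of the 18 nuclear genes listed for complex V, which include the inhibitor ATP5IF1, 1 was higher and 15 lower, with a median of −0.24. ATP5F1D, a subunit of the central stalk, was lowest at −0.40 and ATP5ME highest at 0.27. Complex II, which has no mitochondrial subunit, had 2 of 4 lower, SDHA (−0.29) and SDHB (−0.22), and a median of −0.14. Of the 12 heavy-strand mRNAs, 11 had a ratio above the nuclear median of their complex, and MT-ATP8 did not. MT-ND6 was below all but 1 of the 37 nuclear complex I subunits. With 1 library per treatment these differences have no test.

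**Figure D4:**
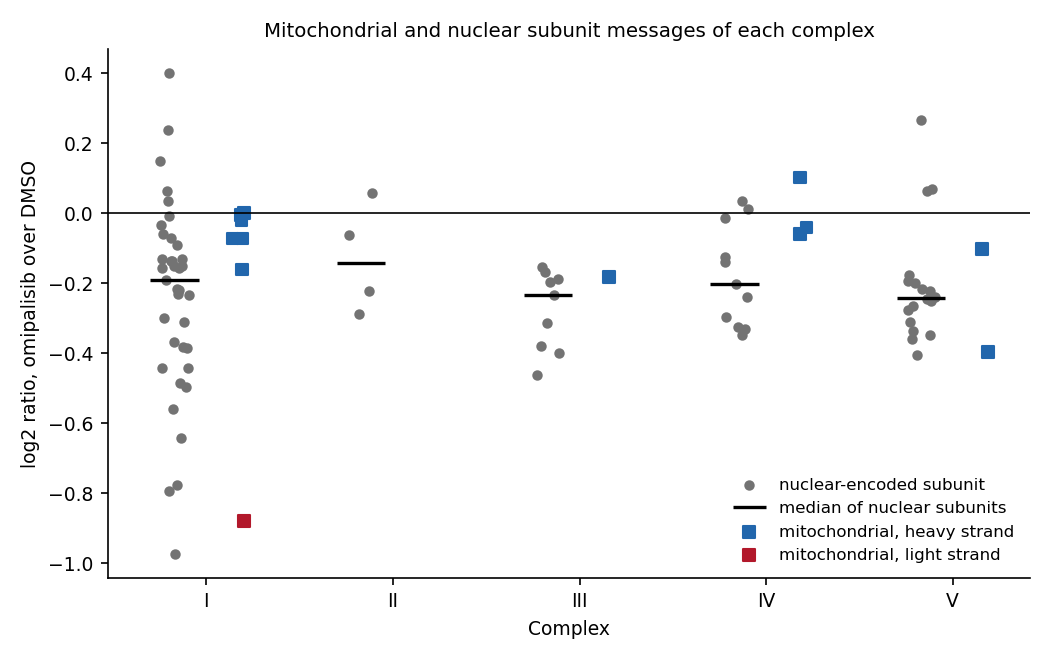
The log2 ratio of each measured subunit message is plotted by complex: nuclear-encoded subunits as grey points with their median as a bar, mitochondrial ones as squares, blue for the heavy and red for the light strand. The grey points of complex V include the inhibitor ATP5IF1. The blue squares of complexes I and IV lie above the bars at −0.19 and −0.20, and the red square, MT-ND6, lies at −0.88.

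Genes that make, cut and keep mitochondrial RNA are given beside the same shares over all genes, 26.1% higher and 28.6% lower. Those shares move with depth: among genes with 10000 counts or more, 32.4% were higher and 58.5% lower. No share was taken at the depth of the genes listed here. Of 11 transcription genes, 3 were higher, a share near that of all genes, and 5 lower. The median was −0.14. POLRMT, the mitochondrial RNA polymerase, had 1895 and 1531 counts, for a log2 ratio of −0.13 (−0.23 to −0.04). TFAM, which packages the genome and opens its promoters, had 4350 and 2972 counts, a ratio of −0.38 (−0.44 to −0.31). Its partner TFB2M had 0.062 (−0.033 to 0.16), and the elongation factor TEFM −0.14 (−0.36 to 0.07). MTERF3, a negative regulator of mitochondrial transcription, had −0.53, MRPL12 −0.66, and the mitochondrial topoisomerase TOP1MT was highest at 0.57 (0.50 to 0.65). MRPL12 shares most of its exonic bases with another gene on its strand and is uncertain. Of 12 replication and maintenance genes, 1 was higher and 8 lower, and the median was −0.24. FEN1, a flap endonuclease that also serves nuclear replication, was lowest at −0.77, and POLG2, the accessory subunit of the DNA polymerase, highest at 0.40.

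Of 26 measured genes that cut and modify mitochondrial RNA, 1 was higher and 14 lower, beside 26.1% and 28.6% of all genes, and the median was −0.16. ELAC2, which cuts the 3′ ends of tRNAs, had 2849 and 1757 counts, a ratio of −0.52 (−0.61 to −0.44). PRORP, the nuclease for the 5′ ends, had −0.53 but overlaps another gene on its strand, and its partner TRMT10C had −0.11 (−0.19 to −0.02). MRM3, a methyltransferase of the 16S rRNA, had −0.53, and QTRT1, of the enzyme that places queuine in tRNAs, was highest at 0.18. Of 19 genes of stability, polyadenylation and decay, none was higher and 15 were lower, beside the same shares, which are not matched for depth. The median was −0.19. LRPPRC, which with SLIRP protects mitochondrial mRNAs, had 9769 and 8206 counts, a ratio of −0.08 (−0.12 to −0.04), and SLIRP −0.32 (−0.56 to −0.09). The poly(A) polymerase MTPAP had −0.11 (−0.24 to 0.01). The highest ratio of the list, that of FASTKD1, was 0.028, and the lowest that of PNPT1. PNPT1 and SUPV3L1, the nuclease and helicase of the degradosome, had −0.57 (−0.66 to −0.49) and −0.19 (−0.32 to −0.06). GRSF1, a protein that binds G-rich RNA such as the MT-ND6 message and works with the degradosome on light-strand RNA, had 3849 and 3335 counts, a ratio of −0.03 (−0.10 to 0.03).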

How the data were processed

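Per the file headers, the authors deposited raw counts of fragments per gene, made by featureCounts 2.0.1 from exon overlaps of pairs with both ends aligned, at the reverse-strand setting (2). Genes that face each other are thus kept apart, while same-strand neighbours lose shared fragments. Neither aligner nor RNA selection is given in the sources used here. Builds hg19 and GRCh37 appear in the submitters' processing notes, but all 37 mitochondrial genes have the position and strand of GENCODE release 29 on GRCh38.

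Counts were scaled by TMM (edgeR 4.0.16, R 4.3.3). The log2 ratio was taken after adding 0.5 to each count, with an interval from the exact (Clopper-Pearson) limits of the omipalisib fraction. Sums were taken without the added 0.5, and genes with under 20 counts over both libraries got no call. Levels are counts per kilobase of the length in the file scaled to the library total (CPM per kilobase). The limit that a count of 0 allows, 3 counts, is 0.114 CPM for DMSO and 0.133 for omipalisib. The procedure was run on simulated counts that held counting error only, so that run cannot show how the intervals cover spread between cultures. Named genes are all mRNAs, rRNAs and light-strand genes, the extreme tRNAs, up to 3 genes at each end of each nuclear list of subunits or RNA and DNA factors with 100 counts, and 12 set RNA factors. Members and lists were chosen with earlier results of these data known. Alternatives were other scalings, an added count of 1, other minimum counts and folds, thinned DMSO counts, and genes left out.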

Additional observations from a re-analysis of the deposited data

How the results depend on the processing

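No paired analysis was possible because each treatment has 1 library, and for the same reason no library could be left out. All values below are log2 ratios of omipalisib over DMSO unless called counts. With scaling by total counts all ratios moved up by 0.049: the sum of all 37 genes was 0.0498, complex I −0.0374, complex III −0.1325, complex IV 0.0903, complex V −0.0764, the rRNAs 0.1633 and the median of nuclear complex V subunits −0.1929, the number of higher members was 5, MT-CO3 (0.0086) and MT-ND5 (0.0284) changed sign, as did MT-ND4 (0.0443), MT-TV (0.0273) and MT-TY (0.0419), whose intervals had included 0. With median-of-ratios size factors, all moved by −0.038: the sum was −0.0374, complex I −0.1245, complex III −0.2197, complex IV 0.0031, complex V −0.1636 and the rRNAs 0.0761, and MT-ND4L (−0.0377), MT-TL1 (−0.0125) and MT-TI (−0.0313) changed sign. With thinned DMSO counts the sum was −0.0047 and complex IV 0.0353, and MT-TY (0.0110) and MT-ND4L (−0.0086) changed sign. A fold of 2 left 1 member past it, MT-TF with 20 and 7 counts and not MT-ND6 or MT-TP, and the smaller alternative fold gave 7. Chosen after seeing the data, leaving out MT-CO1 gave a sum of −0.0373 and turned complex IV to −0.0486, leaving out MT-RNR2 gave a sum of −0.0270 and an rRNA value of −0.3697, from MT-RNR1 alone, and leaving out MT-ND6 gave complex I −0.0457. These follow from the genes removed. The light-strand deficit of mRNAs was between −0.8745 and −0.8715 in all settings run, and that of tRNAs between −0.4748 and −0.3094. Depth limits the tRNAs: all but 8 had summed counts under 100.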
